A study of Mus musculus with 6 samples.

Results

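The RNA levels of 34 genes for cardiac calcium handling and ion channels were followed through mouse hearts treated with doxorubicin (Dox), with ginsenoside Rh2, or with both. The genes were a given list of symbols in the expression table, 34 of the 45777 genes in it, and all 34 had enough reads to be tested. They were ordered here by role, with 7 genes of calcium release and storage, 5 of calcium uptake and its regulators, 5 voltage-gated calcium channel subunits, 1 sodium channel beta subunit, 5 genes of the transient outward and rapid potassium currents, 3 of the delayed rectifier, 7 of the inward rectifier, K-ATP and background currents, and 1 gap junction protein. The question was whether RNA for this machinery differed with Dox, an anthracycline known for harming the heart, and whether Rh2, a steroid-like saponin of ginseng, went with a difference.

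Every heart came from a female BALB/c nude mouse (CAnN.Cg-Foxn1nu/Crl), a strain without a working thymus. The age given for the mice is 6 weeks, which is their age at entry to the study, before treatment. All mice, controls included, carried a tumour grown from MDA-MB-231, a human breast cancer cell line. Control mice received vehicle. Rh2 alone was given at 20 mg/kg (group Rh2-20 mg/kg) or at 30 mg/kg (Rh2-30 mg/kg). Dox alone was given at 2 mg/kg per dose to a cumulative 22 mg/kg, and a further pair of groups joined that course to either Rh2 dose (Rh2-20 mg/kg + Dox, and with the higher dose Rh2-30 mg/kg + Dox). The course lasted 3 weeks. Each condition had 1 library, pooled from 5 hearts, so a difference between 2 libraries has no replicate check. The same 6 libraries were also compared as 3 with Dox against 3 without, and as 2 at each Rh2 dose against 2 without Rh2, where the libraries of a group are separate pools that differ in the other drug.

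In a heart muscle cell each beat starts with sodium and calcium entering through voltage-gated channels. The calcium that enters through the L-type channel opens the ryanodine receptor on the sarcoplasmic reticulum (SR), which releases a larger store, and the SR pump and the sodium-calcium exchanger then clear it. Potassium channels of several kinds return the membrane to rest, and in mice the transient outward and rapid currents do most of this work. Atrial and ventricular muscle share the calcium machinery but differ in some channels, among them the acetylcholine-activated potassium channel, which is mainly atrial.

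Each library held 86164411 to 90621002 read counts, and the 34 genes took 1.52% to 1.72% of them. Levels are CPM, counts scaled to a common library size by the trimmed mean of M values (TMM), unless a count or FPKM is named. Where 6 values follow each other, the 3 libraries without Dox come first in order of Rh2 dose (0, 20 and 30 mg/kg), and then the 3 with Dox in the same order. All 12 cardiomyocyte markers were read in every library, and their summed level was lowest in Rh2-30 mg/kg at 84320 CPM and reached 116400 CPM in Rh2-30 mg/kg + Dox. The Rh2-30 mg/kg library stood apart in what else it held. The summed level of 12 atrium markers was 3435 CPM there against 656 to 1362 CPM in the other 5, of 10 fat markers 315 against 9.36 to 46.0 CPM, of 12 neuron and ganglion markers 33.1 against 5.20 to 8.10 CPM, of 9 mesothelium markers 77.2 against 29.5 to 49.5 CPM, and of 12 fibroblast markers 3902 against 1873 to 2813 CPM. The Rh2-30 mg/kg + Dox library was the lowest of the 6 for the fat, neuron, mesothelium and fibroblast sums, and for 9 red cell markers it had 1662 CPM, where Dox had 10600 CPM and the other 4 had 2629 to 5951 CPM. In a pooled tissue, fewer cells of a type and less RNA per cell cannot be told apart, and the part of these markers in the results below was not tested.

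Per length, the RNA of this machinery spanned from the SR pump to a barely read stabiliser of the ryanodine receptor. Mean FPKM (fragments scaled by transcript length and library size) over the 6 libraries was 694 for Atp2a2 (SERCA2a, the SR calcium pump), 289 for Pln (phospholamban, which holds the pump back), 255 for Ryr2 (the cardiac ryanodine receptor) and 201 for S100a1 (a calcium sensor that acts on the pump and the ryanodine receptor). Next came Casq2 (calsequestrin, the calcium buffer inside the SR) at 114 FPKM and Gja1 (connexin 43, the ventricular gap junction protein) at 102 FPKM. The ranges of Pln and Ryr2 overlapped, so their order was not fixed. At the low end stood Kcne1 at 0.504 FPKM, Cacna1h at 0.411 FPKM and Fkbp1b at 0.392 FPKM, whose ranges also overlapped. Fkbp1b had 22 to 75 counts per library, and its values carry a counting error far above that of the other genes.

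**Figure D1:**
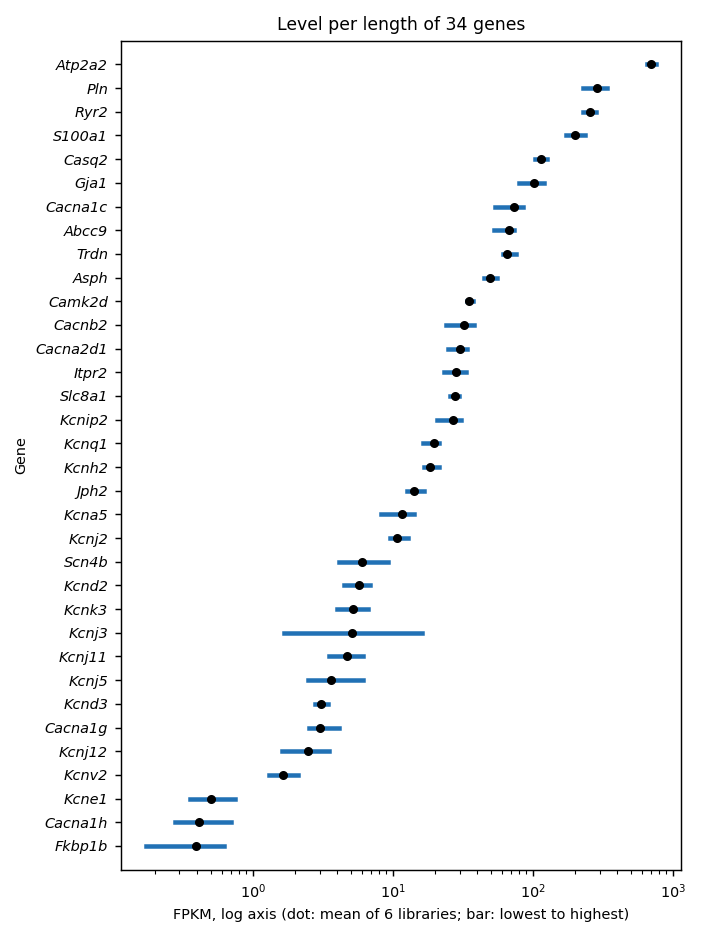
Level per length of the 34 genes in FPKM on a log axis, with the mean of 6 libraries as a dot and the lowest to highest library as a bar. Atp2a2 at 694 FPKM is at the top and Fkbp1b at 0.392 FPKM at the bottom, and the widest bar is that of Kcnj3, from 1.68 to 16.2 FPKM.

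The median coefficient of variation of the 34 genes was 15.6%, against 15.6% for all 18328 tested genes and 10.6% for the 8741 tested genes averaging 1000 counts or more, a set closer to the level of the 34 genes. The steadiest was Camk2d (the calmodulin-dependent kinase of the heart), at 238 to 258 CPM and a coefficient of variation of 3.00%. The most variable was Kcnj3, at 19.7 to 97.7 CPM and 76.0%. The Rh2-30 mg/kg library gave the lowest value of 17 of the 34 genes, where it was lowest for 21.1% of all tested genes. The Rh2-30 mg/kg + Dox library gave the highest value of 15, where it was highest for 20.2% of all.

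Set against Control, the median log2 fold change of the 34 genes was -0.21 in Rh2-30 mg/kg, where the median of all tested genes was 0.03. With Dox it was -0.05, -0.07 and 0.10 in order of Rh2 dose, and at Rh2-20 mg/kg alone -0.01, with all-gene medians of -0.01 to 0.01. In Rh2-30 mg/kg the 12 cardiomyocyte markers had a median log2 fold change of -0.38 against Control. Scaling libraries to their cardiomyocyte markers moved all genes of the Rh2-30 mg/kg library alike. The medians became 0.22 for the 34 genes and 0.46 for all. Such a shift cannot change the gap between the 34 genes and all genes, so it is no second check of that gap. The number of the 34 genes above Control, 10 (53.5% of all genes were above it), became 25 through that shift. The same scaling moved the all-gene median to 0.14 in Rh2-20 mg/kg and to 0.21 once Dox was added to that dose.

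**Figure D2:**
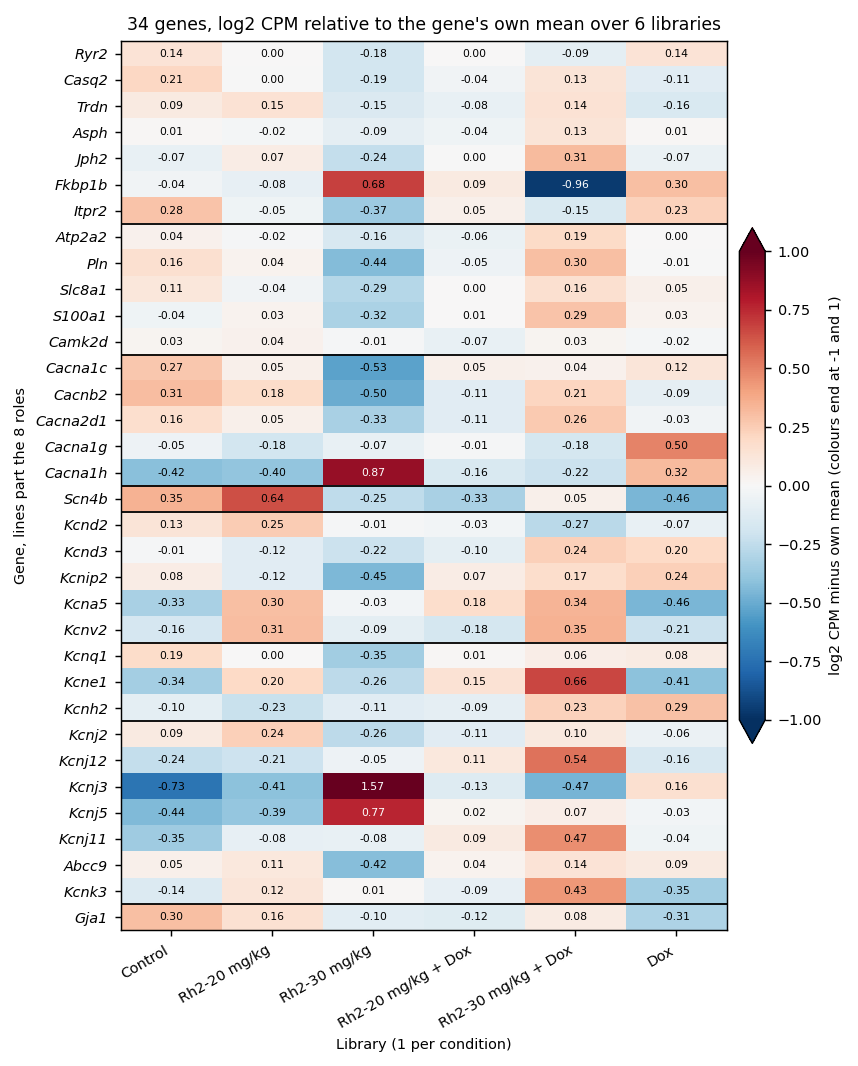
Each of the 34 genes (rows, parted by role) in each of the 6 libraries (columns), as log2 CPM minus the gene's own mean over the libraries. In Rh2-30 mg/kg most calcium handling genes are in blue, the lowest value of 17 genes being there, while Kcnj3, Kcnj5, Cacna1h and Fkbp1b are in red.

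With the 3 Dox libraries against the 3 others, no member of the 34 reached an adjusted p-value of 0.05 (edgeR quasi-likelihood test, two-sided, Benjamini-Hochberg adjustment over 18328 genes). Among all tested genes 5 passed, 0.0273% (0.0164% higher and 0.0109% lower), and 1852 had an unadjusted p-value under 0.05, 10.1%, of which 1 was among the 34 genes. In the comparisons of each Rh2 dose with no Rh2, 0 of all tested genes passed by this test, with 456 (2.49%) and 1121 (6.12%) at an unadjusted p-value under 0.05, of which 1 and 3 were among the 34 genes. Leaving out each library in turn moved these unadjusted counts to 198 to 868 of all genes at the lower dose and to 538 to 2600 at the higher, where the 34 genes had 1 to 14, lowest without Dox and highest without Rh2-30 mg/kg + Dox. DESeq2's Wald test passed 425, 35 and 126 of all genes in the 3 comparisons, and among the 34 it passed 0, 0 and 1. The 2 groups did not overlap for 2 genes that were higher with Dox (7.85% of all genes) and 1 that was lower (9.16% of all). With Rh2-20 mg/kg, 4 genes were above both libraries without Rh2 (18.2% of all genes) and 9 were below (17.8% of all). With Rh2-30 mg/kg, 6 were above (17.4% of all) and 5 below (15.8% of all). Kcna5, Kcne1 and Kcnk3 were above at both doses, and Cacna1c, Itpr2, Kcnq1 and Ryr2 were below at both. The share of all genes split in this way at both doses was not counted, so such an order is given below as a description.

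For single libraries a gene was called when it differed at least 2-fold from Control with p under 0.05 in edgeR's exact test with a common dispersion, which compares libraries and not conditions. By that rule 3 of the 34 genes were called in Rh2-30 mg/kg, all higher (9.04% of all genes were called, 7.68% higher), and 1 in Rh2-30 mg/kg + Dox, higher (9.39% of all, 3.29% higher). No gene of the 34 was called in the library of Rh2-20 mg/kg (4.81% of all), in its partner with Dox (7.50% of all) or in Dox (7.62% of all). Against the Dox library, none was called in Rh2-20 mg/kg + Dox (5.19% of all). Over the 5 libraries 4 of the 34 genes were called at least once, 11.8% of them, against 20.0% of all genes. At a fold of 1.5 with no test the share was 41.2% of the 34 against 41.5% of all. By that wider limit Rh2-30 mg/kg had 4 genes higher and 5 lower (16.1% and 5.67% of all genes), Rh2-30 mg/kg + Dox 4 and 1 (8.81% and 13.9% of all), Dox 2 and 2 (11.0% and 8.58% of all), Rh2-20 mg/kg + Dox 1 and 1 (10.3% and 7.96% of all) and Rh2-20 mg/kg 1 and 0 (6.95% and 6.62% of all).

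The calcium release unit showed its clearest difference in Itpr2, the inositol trisphosphate receptor, a second release channel beside the ryanodine receptor (chr6:146108299-146502258, mm10). Itpr2 was at 512, 408 and 326 CPM without Dox and at 494, 436 and 379 CPM with it. The 4 libraries with Rh2 were all below the 2 without it, and both libraries at 30 mg/kg were below both at 20 mg/kg. The share of all genes with that order was not counted. Against no Rh2 the log2 fold change was -0.25 ± 0.12 (SE) at 20 mg/kg, with an unadjusted p-value of 0.0885 in the quasi-likelihood test, and -0.51 ± 0.12 at 30 mg/kg, with an unadjusted p-value of 0.00699 and an adjusted p-value of 0.764. By DESeq2's Wald test the difference at 30 mg/kg passed, with an adjusted p-value of 0.023. Leaving out each library in turn, it stayed between -0.62 and -0.38 on the log2 scale, and scaled to cardiomyocyte markers it was -0.33 with an unadjusted p-value of 0.0514, against an all-gene median of 0.23 on that scale. The difference between the 2 doses was not tested.

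Ryr2, the main release channel, ran the same way with a smaller span. It was at 6033, 5492 and 4839 CPM without Dox and 6030, 5490 and 5138 CPM with it. The log2 fold change at 30 mg/kg was -0.27 with a 95% interval of -0.60 to 0.05 (unadjusted p-value 0.0815, quasi-likelihood test). The interval for Dox was -0.28 to 0.33.

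The proteins that hold the release unit together had narrow ranges. Asph (junctin and its longer relatives, from 1 gene) was at 184 to 214 CPM, Trdn (triadin) at 185 to 228 CPM and Casq2 at 333 to 437 CPM. Jph2, junctophilin, which ties the SR to the cell surface, was highest in Rh2-30 mg/kg + Dox at 95.4 CPM and lowest in Rh2-30 mg/kg at 65.0 CPM, with 73.1 to 80.9 CPM in the other 4. Within a library, counts of Ryr2 per count of Casq2 do not depend on scaling, and this ratio was 17.2 in Dox (95% counting interval 17.0 to 17.4), 12.4 in Rh2-30 mg/kg + Dox (12.3 to 12.5) and 13.8 to 14.9 in the other 4. Fkbp1b, which steadies the closed ryanodine receptor, was called lower in Rh2-30 mg/kg + Dox against Dox, on 22 against 51 counts, a log2 fold change of -1.24 with an interval of -2.23 to -0.26 once the dispersion is included (6.56% of all genes were called lower there).

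Of the calcium uptake genes, the pump Atp2a2 had a narrow range and Pln a wider one. Atp2a2 was at 3843 CPM in Rh2-30 mg/kg, 4926 CPM in Rh2-30 mg/kg + Dox and 4120 to 4438 CPM in the other 4, a highest over lowest ratio of 1.28. The Dox log2 fold change of Atp2a2 was 0.09 with a 95% interval of -0.20 to 0.38. Pln was at 990, 910 and 655 CPM without Dox and 883, 855 and 1093 CPM with it. Only the Rh2-30 mg/kg library lay over 1.5-fold from Control, with a log2 fold change of -0.60, against an all-gene median of 0.03. Scaled to cardiomyocyte markers it was -0.17, against an all-gene median of 0.46, as that scaling shifts all genes alike. The ratio of Atp2a2 to Pln counts was 5.87 in that library (5.82 to 5.92) and 4.48 to 4.88 in the other 5, so Pln was lower relative to Atp2a2 there whatever the scaling.

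Slc8a1, the sodium-calcium exchanger that sends calcium out of the cell, was at 526 CPM in Rh2-30 mg/kg and 625 to 716 CPM elsewhere. S100a1 was at 128 CPM in Rh2-30 mg/kg, 195 CPM in Rh2-30 mg/kg + Dox and 156 to 164 CPM in the other 4. For these 5 uptake genes the intervals of the Dox log2 fold change lay within -0.27 and 0.57, and no unadjusted p-value was under 0.05 in the quasi-likelihood test.

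The L-type calcium channel is built from the pore Cacna1c, the beta subunit Cacnb2 and the alpha-2-delta subunit Cacna2d1, and all 3 were lowest in Rh2-30 mg/kg. Cacna1c was at 1533, 1321 and 880 CPM without Dox and 1382, 1321 and 1313 CPM with it. Cacnb2 was at 206, 188 and 118 CPM without Dox and 156, 154 and 193 CPM with it. Against Control the log2 fold changes in Rh2-30 mg/kg were -0.80 for Cacna1c (interval with dispersion -1.48 to -0.13) and -0.81 for Cacnb2 (-1.48 to -0.13), short of the 2-fold rule. Scaled to cardiomyocyte markers they were -0.37 and -0.38, against an all-gene median of 0.46 on that scale. For Dox the log2 fold change of Cacna1c was 0.11 with an interval of -0.36 to 0.57.

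Of the T-type channels, which help to set pacing in the sinus node and are found in atrial muscle, Cacna1h was highest where the L-type genes were lowest. Cacna1h (chr17:25374285-25436334, mm10) had 315, 345 and 875 counts without Dox and 528, 415 and 377 with it. It was called higher in Rh2-30 mg/kg against Control, with a log2 fold change of 1.29 (0.59 to 1.99). Cacna1g, the other T-type pore, had its highest value in Dox, at 43.6 CPM against 27.2 to 30.6 CPM in the other 5.

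The gene that varied most among the 34 was Kcnj3 (chr2:55411798-55598145, mm10), which codes for GIRK1. With Kcnj5, GIRK4 (chr9:32314706-32344380, mm10), it forms the channel that acetylcholine opens to slow the atria and the sinus node. Kcnj3 had 1644, 2226 and 9266 counts without Dox and 3090, 2754 and 2062 with it. Kcnj5 had 1254, 1408 and 3295 counts without Dox and 1686, 1904 and 1861 with it. Both were highest in Rh2-30 mg/kg and lowest in Control, and both were called higher in Rh2-30 mg/kg against Control, with log2 fold changes of 2.31 (1.63 to 2.99) for Kcnj3 and 1.21 (0.53 to 1.89) for Kcnj5.

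The promoter windows of these partner genes are shown because the genes were high in the same library, and those of Kcna5 and Pln because their RNA is described here with other patterns. Each window runs from 250 bases before to 50 after a RefSeq transcript start in GRCm38.p6, the assembly named mm10, and is written 5′ to 3′ on the gene's strand. They lie at chr2:55435720-55436019 on the plus strand, chr9:32344295-32344594 on the minus strand, chr6:126535506-126535805 on the minus strand and chr10:53337436-53337735 on the plus strand, in the order Kcnj3, Kcnj5, Kcna5 and Pln. The Kcnj3 window is at a start inside that gene's annotated span. Capitals mark exact matches, on either strand, to 6 motifs that were searched. The letters AGATAA stand for a site of GATA factors, which act in heart muscle. A core of MEF2 sites was searched as TAAAAATA. The muscle element bound by TEAD factors was searched as CATTCC. For T-box factors, which pattern the chambers, the letters were AGGTGT. A core promoter box was searched as TATAAA, and the GC box of SP1 as GGGCGG.
Kcnj3: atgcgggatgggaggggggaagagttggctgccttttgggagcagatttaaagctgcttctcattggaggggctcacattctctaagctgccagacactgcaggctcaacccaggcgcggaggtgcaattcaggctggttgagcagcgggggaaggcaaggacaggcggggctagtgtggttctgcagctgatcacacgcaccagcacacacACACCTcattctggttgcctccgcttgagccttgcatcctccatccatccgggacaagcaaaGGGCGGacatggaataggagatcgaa
Kcnj5: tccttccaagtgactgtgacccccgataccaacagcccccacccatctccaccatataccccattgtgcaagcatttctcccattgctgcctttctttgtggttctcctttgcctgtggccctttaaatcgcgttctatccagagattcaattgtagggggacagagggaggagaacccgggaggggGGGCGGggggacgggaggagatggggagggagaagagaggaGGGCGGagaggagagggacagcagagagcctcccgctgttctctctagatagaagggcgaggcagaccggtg
Kcna5: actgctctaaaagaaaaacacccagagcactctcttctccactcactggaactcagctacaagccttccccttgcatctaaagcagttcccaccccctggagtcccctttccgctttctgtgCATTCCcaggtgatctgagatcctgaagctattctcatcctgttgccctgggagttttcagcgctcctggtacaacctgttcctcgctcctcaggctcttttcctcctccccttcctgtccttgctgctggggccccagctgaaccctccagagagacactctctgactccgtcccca
Pln: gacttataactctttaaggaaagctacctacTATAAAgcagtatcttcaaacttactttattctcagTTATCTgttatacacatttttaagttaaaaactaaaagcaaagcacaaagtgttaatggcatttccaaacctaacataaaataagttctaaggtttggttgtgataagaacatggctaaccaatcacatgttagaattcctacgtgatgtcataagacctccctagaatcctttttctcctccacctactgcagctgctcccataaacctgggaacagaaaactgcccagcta

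The Kcnj3 and Kcnj5 windows both held GGGCGG, once in Kcnj3 and at 2 places in Kcnj5, as did 35.7% of all 32851 windows in the RefSeq table. The T-box element was in Kcnj3 alone of the 4, and in 13.7% of all windows. The Pln window, with 36% G and C bases, held AGATAA (11.2% of all windows) and TATAAA (13.6% of all). Its TATAAA letters begin 219 bases before the transcript start. The Kcna5 window held CATTCC (14.7% of all). Entries were found for 24 of the 34 genes, with 28 windows in all. Of these, 16 held the GC box, 3 each the GATA, MEF2 (2.72% of all windows), TEAD and T-box letters, and 1 the letters TATAAA. A match is a description of these letters and not a bound site.

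Atrium markers were highest in the same library. Myl7, the atrial myosin light chain, had 56, 1187 and 52896 counts without Dox and 9134, 10613 and 19 with it. Sln, sarcolipin, the atrial regulator of the SR pump, had 14, 326 and 15768 counts without Dox and 1828, 4393 and 0 with it, where a count of 0 allows up to 3 counts. Bmp10 was at 0 in Control, and otherwise all 12 atrium markers but Sln in Rh2-30 mg/kg + Dox had reads in every library. Rh2-30 mg/kg was the highest library for Kcnj3, Kcnj5, Cacna1h, Myl7 and Sln. Kcnj3 had 1644 and 2062 counts in the 2 libraries where Myl7 was at 56 and 19. The part of the atrium markers in the Kcnj3 values was not tested. Within a library Kcnj3 had 2.81 counts per Kcnj5 count in Rh2-30 mg/kg (2.70 to 2.93), against 1.11 in Rh2-30 mg/kg + Dox (1.04 to 1.18) and 1.31 to 1.83 in the other 4.

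**Figure D3:**
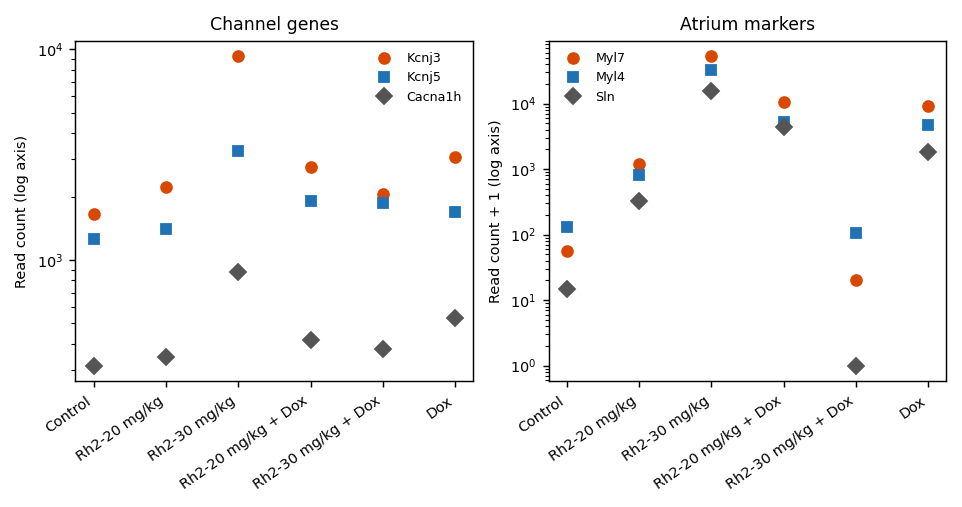
Read counts on log axes in each of the 6 libraries, for the channel genes Kcnj3, Kcnj5 and Cacna1h (left) and, with 1 added, for the atrium markers Myl7, Myl4 and Sln (right). All 6 genes are highest in Rh2-30 mg/kg, where Kcnj3 has 9266 counts and Myl7 52896, and Sln has 0 counts in Rh2-30 mg/kg + Dox.

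With the 3 Dox libraries against the 3 others, Kcnj3 had a log2 fold change of -0.65 with a 95% interval of -2.03 to 0.73, and its sign depended on 1 library. Without Rh2-30 mg/kg it was 0.45. Against the library at the same Rh2 dose, Dox went with a log2 fold change of 0.90 at no Rh2 (0.22 to 1.58), 0.28 at 20 mg/kg and -2.04 at 30 mg/kg (-2.72 to -1.36). The value at 20 mg/kg was -0.44 and -0.56 on FPKM plus 1 and plus 0.1. Kcnj3, Cacna1h and Fkbp1b were the genes called lower in Rh2-30 mg/kg + Dox against Rh2-30 mg/kg (11.5% of all genes were). At 1.5-fold, 7 genes were higher in that pair (6.96% of all) and 4 lower (20.4% of all). Over the same pair of libraries the 34 genes had a median log2 fold change of 0.36, with an all-gene median of -0.03. The 12 cardiomyocyte markers had a median of 0.57 in that pair. Scaled to those markers, the medians were -0.10 for the 34 genes and -0.50 for all. That scaling shifts all genes alike and cannot change the gap between these medians, so it is no second check.

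Scn4b, the beta-4 subunit that shapes the sodium current (chr9:45138624-45154155, mm10), had the lowest log2 fold change of the 34 genes in the Dox library against Control. It was at 45.6, 56.0 and 30.1 CPM without Dox and 26.1, 28.6 and 37.1 CPM with it. The Dox libraries were low at no Rh2 and at 20 mg/kg, and at 30 mg/kg the order turned. The log2 fold changes were -0.80 (-1.48 to -0.12), -0.97 (-1.65 to -0.29) and 0.30, each under 2-fold (at 20 mg/kg, 6.62% of all genes were at least 1.5-fold lower with Dox). Over all 3 doses the Dox log2 fold change was -0.52 ± 0.24 (SE), with an unadjusted p-value of 0.0639 and an adjusted p-value of 0.526 in the quasi-likelihood test. Without the Rh2-30 mg/kg library it was -0.72 with an unadjusted p-value of 0.00608, and without Rh2-20 mg/kg it was -0.30 with 0.238. In the quasi-likelihood fit with Rh2 dose as a term, which matches libraries by dose, it was -0.50 with an unadjusted p-value of 0.139. Scaled to cardiomyocyte markers it was -0.63, with an unadjusted p-value of 0.0137, against an all-gene median of -0.15 on that scale.

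Gja1 likewise was lowest in Dox, at 505, 458 and 383 CPM without Dox and 331, 377 and 435 CPM with it. The Dox library was 1.5-fold below Control, with a log2 fold change of -0.61 and an interval of -1.28 to 0.07 with the dispersion. Over the 3 doses the groups overlapped and the Dox log2 fold change was -0.23 ± 0.14, with an unadjusted p-value of 0.149 in the quasi-likelihood test (-0.35 with 0.0207 when scaled to cardiomyocyte markers, where the all-gene median was -0.15).

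The transient outward current of the mouse ventricle comes from the pores Kcnd2 and Kcnd3 with their partner Kcnip2. Kcnd2 was at 42.7, 46.6 and 38.8 CPM without Dox and 37.2, 38.4 and 32.4 CPM with it. All 3 Dox libraries were below the 3 without Dox, though the nearest values, 38.4 and 38.8 CPM, almost met. The log2 fold change was -0.25 ± 0.11 (SE), with an unadjusted p-value of 0.0548 and an adjusted p-value of 0.503 in the quasi-likelihood test. Kcnd3 was at 25.9 to 29.9 CPM without Dox and 28.1 to 35.6 CPM with it, and the groups overlapped. In the same order of doses, counts of Kcnd2 per count of Kcnd3 were 1.43, 1.68 and 1.498 without Dox. With Dox they were 1.08, 1.37 and 0.913. Each Dox value was below each value without Dox, but the 95% counting intervals of the nearest pair overlapped. These intervals were 1.356 to 1.503 in Control and 1.298 to 1.437 in Rh2-20 mg/kg + Dox. This ratio was chosen after its values were seen and has no test. Kcnip2 was at 58.5 to 84.3 CPM without Dox and 84.1 to 94.4 CPM with it, a log2 fold change of 0.31 with an interval of -0.02 to 0.64, and 0.19 without the Rh2-30 mg/kg library.

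Kcna5, the pore of the ultrarapid potassium current (chr6:126532551-126535555, mm10), was higher with Rh2 at both doses. It was at 35.7, 55.1 and 43.8 CPM without Dox and 32.6, 50.7 and 56.6 CPM with it. Every library with Rh2 was above both without it, a split whose share among all genes was not counted. The log2 fold change was 0.63 ± 0.15 (SE) at 20 mg/kg, with an unadjusted p-value of 0.00701 and an adjusted p-value of 1 in the quasi-likelihood test, and 0.55 ± 0.15 at 30 mg/kg, with 0.012 and 0.764. DESeq2's Wald test gave adjusted p-values of 0.234 and 0.149. Leaving out each library in turn, the difference was 0.57 to 0.70 at 20 mg/kg and 0.36 to 0.75 at 30 mg/kg, lowest without the Rh2-30 mg/kg + Dox library. Kcnv2, a silent subunit that joins other potassium pores, was at 8.30 to 12.2 CPM with no such split at 20 mg/kg.

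Among delayed rectifier genes Kcnh2 (ERG, the pore of the rapid component, chr5:24319589-24351684, mm10) was the single one of the 34 with an unadjusted p-value under 0.05 for Dox in the fit without a term for Rh2. With Rh2 dose as a term, which matches the libraries by dose, 4 genes were under it, Kcnh2 (0.0266), Kcnd2 (0.0274), Kcnj11 (0.0284) and Kcnip2 (0.04999), with adjusted p-values of 0.530 to 0.572 in the quasi-likelihood test. DESeq2's Wald test also had 4 under it, Kcnh2, Kcnip2, Kcnj11 and Scn4b. Kcnh2 was at 91.8, 84.0 and 91.1 CPM without Dox and 120.4, 92.5 and 115 CPM with it. The Dox libraries were all above the others, the nearest values being 91.8 and 92.5 CPM. The log2 fold change was 0.30 ± 0.12 (SE), with an unadjusted p-value of 0.0366 and an adjusted p-value of 0.455 in the quasi-likelihood test. Scaled to cardiomyocyte markers it was 0.15, with an unadjusted p-value of 0.335, against an all-gene median of -0.15 on that scale, and without the Dox library it was 0.22, with 0.114.

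Kcnq1, the pore of the slow component, was at 59.6 CPM in Rh2-30 mg/kg and 76.0 to 86.3 CPM elsewhere. Kcne1, its beta subunit, had 127, 200 and 153 counts without Dox and 122, 196 and 266 with it. The 4 libraries with Rh2 were above the 2 without it, a split whose share among all genes was not counted. After scaling the nearest values almost met, at 1.52 CPM in Control and 1.61 CPM in Rh2-30 mg/kg. Kcne1 was called higher in Rh2-30 mg/kg + Dox against Control, at a log2 fold change of 1.003 (0.26 to 1.74) that lies at the 2-fold limit, and against Dox, at 1.07 (0.33 to 1.81; 2.22% of all genes were called higher there). Scaled to cardiomyocyte markers the value against Control was 0.967, just under the limit. Over both libraries at each dose the log2 fold changes were 0.55 ± 0.36 and 0.65 ± 0.36, with unadjusted p-values of 0.176 and 0.121 in the quasi-likelihood test. The value at 30 mg/kg was 0.12 without the Rh2-30 mg/kg + Dox library and 1.07 without Rh2-30 mg/kg.

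Of the remaining potassium channels, the K-ATP pore Kcnj11 (Kir6.2, a channel that opens as ATP falls) was at 14.7, 17.7 and 17.8 CPM without Dox and 18.2, 19.95 and 25.9 CPM with it. The groups with and without Dox did not overlap, and the log2 fold change was 0.35 ± 0.16 (SE), with an unadjusted p-value of 0.0575 and an adjusted p-value of 0.51 in the quasi-likelihood test. Without the Rh2-30 mg/kg + Dox library it was 0.19, with an unadjusted p-value of 0.181. Its regulatory partner Abcc9 (SUR2) was at 482 CPM in Rh2-30 mg/kg and 663 to 712 CPM in the other 5. Counts of Abcc9 per Kcnj11 count were 45.6, 39.3 and 27.1 without Dox and 37.7, 33.2 and 27.4 with it, with 95% counting intervals of 43.0 to 48.2 in Control and 25.8 to 28.5 in Rh2-30 mg/kg.

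Kcnk3 (TASK-1, a background potassium channel) was at 23.3, 27.8 and 25.8 CPM without Dox and 20.1, 24.1 and 34.6 CPM with it. All 4 libraries with Rh2 were above the 2 without it, and the share of all genes with that split was not counted. In the quasi-likelihood test at 30 mg/kg, the unadjusted p-value was 0.0417 and the adjusted p-value 0.764. The log2 fold change there was 0.48 ± 0.18 (SE). Without the Rh2-30 mg/kg + Dox library it was 0.25, with an unadjusted p-value of 0.181. Of the classical inward rectifiers, which hold the resting potential, Kcnj2 was at 63.6 to 89.9 CPM. Kcnj12 was at 12.6 to 16.0 CPM in 5 libraries and 21.6 CPM in Rh2-30 mg/kg + Dox, 1.72-fold above Control.

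**Figure D4:**
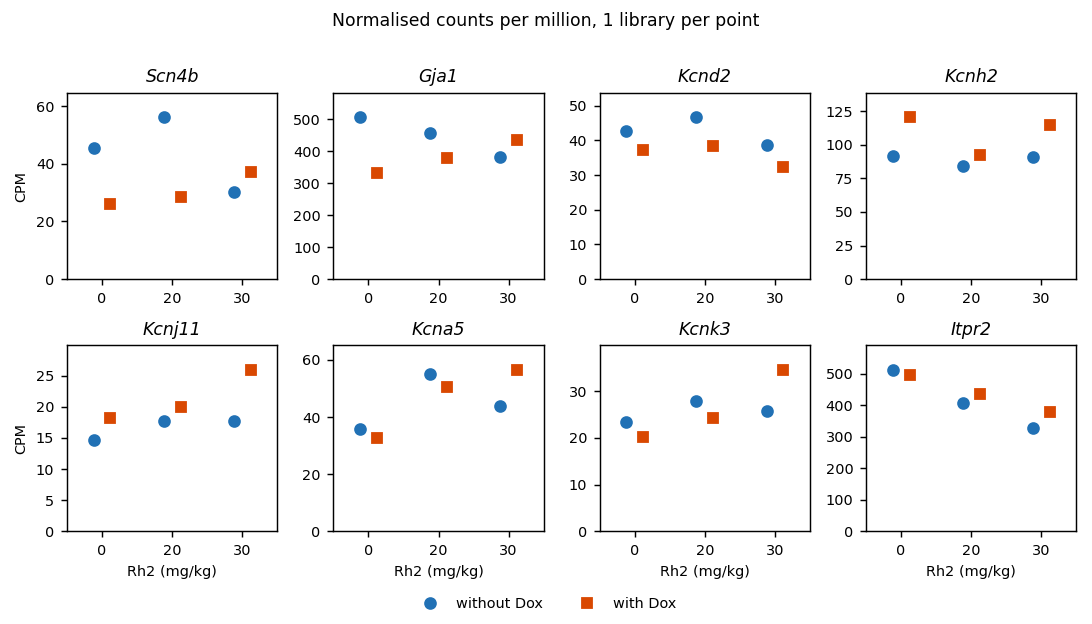
Level of 8 genes in CPM against Rh2 dose, with 1 point per library, circles without Dox and squares with Dox. Kcna5 is at 43.8 CPM or more in all 4 libraries with Rh2 and at 35.7 CPM or less in the 2 without, Itpr2 is lower at each higher dose, and the Scn4b squares are below the circles at 0 and 20 mg/kg but not at 30 mg/kg.

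For Dox over all 3 doses, the log2 fold changes of the 34 genes ran from -0.65 (Kcnj3) to 0.35 (Kcnj12), with a median of 0.07 against -0.01 for all tested genes. The 95% interval of Kcnh2, 0.02 to 0.57, was the only one of the 34 that did not include 0.

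**Figure D5:**
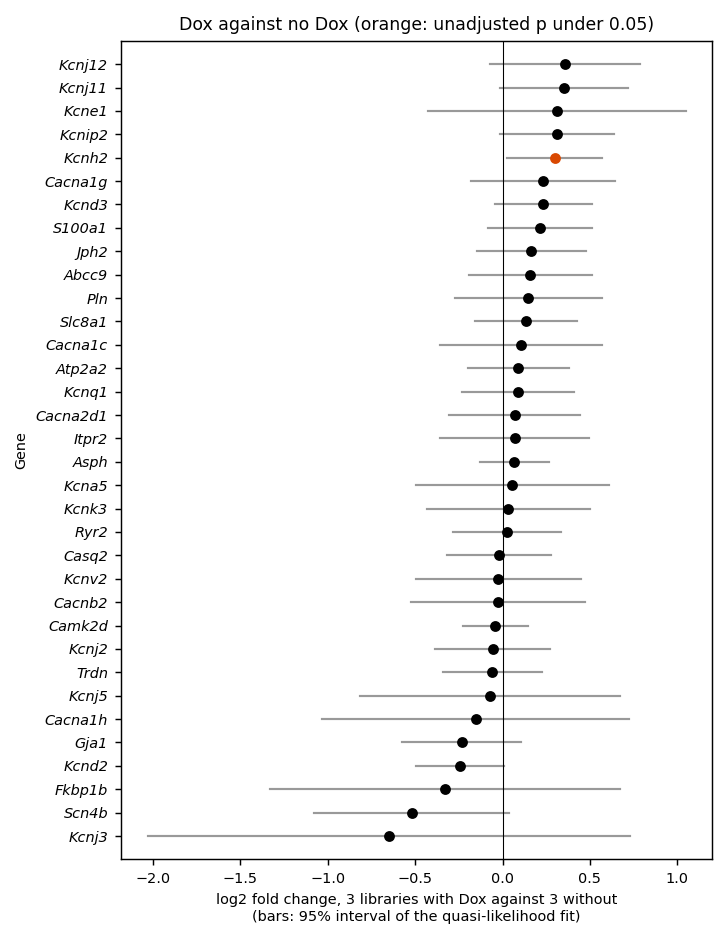
Log2 fold change of each of the 34 genes between the 3 libraries with Dox and the 3 without, with bars for the 95% interval of the quasi-likelihood fit. Kcnh2, at 0.30, is the single gene in orange, with an unadjusted p-value under 0.05, and the widest bar belongs to Kcnj3, from -2.03 to 0.73.

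Other genes of the same pathways were read from 6 lists of 133 genes, of which 127 were tested. By edgeR's quasi-likelihood test 0 of them passed the adjusted threshold in any of the 3 comparisons. At an unadjusted p-value under 0.05, 6 had higher values (4.20% of all genes) and 10 lower (5.91% of all) with Dox, 0 and 3 at the lower Rh2 dose (1.12% and 1.36% of all), and 3 and 5 at the higher (2.92% and 3.19% of all). Against Control, the exact test called 17 of the 127 higher with 3 lower for Rh2-30 mg/kg (7.68% and 1.36% of all genes), 8 and 3 in Dox (4.70% and 2.92% of all), 8 and 1 in Rh2-20 mg/kg + Dox (4.40% and 3.10% of all), 4 and 8 in Rh2-30 mg/kg + Dox (3.29% and 6.10% of all) and 2 and 2 in Rh2-20 mg/kg (2.57% and 2.24% of all).

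Among 29 other genes of the SR store, Ryr3, a minor ryanodine receptor, had 196, 420 and 6801 counts without Dox and 934, 2909 and 249 with it, so its highest library was again Rh2-30 mg/kg. Among 15 other calcium channel subunits, Cacna2d2 was highest in Rh2-30 mg/kg at 19.6 CPM against 2.76 to 7.62 CPM. Trpc6, a receptor-operated cation channel, was at 5.402, 3.83 and 5.12 CPM without Dox and 10.3, 11.1 and 3.23 CPM with it.

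Among 18 sodium channel and exchange genes, Scn4a, best known as the skeletal muscle sodium channel, was at 62.7 to 66.3 CPM without Dox and 39.3 to 48.0 CPM with it. The log2 fold change of Scn4a was -0.61 ± 0.10 (SE), with an unadjusted p-value of 0.000511 and an adjusted p-value of 0.159 in the quasi-likelihood test. The groups did not overlap (9.16% of all genes were lower in that way). The summed skeletal muscle markers were 307 to 518 CPM without Dox and 298 to 329 CPM with it. The part of those markers in the Scn4a values was not tested.

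Among the other potassium channels, Kcna3, best known from T cells, had 97, 137 and 197 counts without Dox and 343, 337 and 58 with it. Of the gap junction and intercalated disc genes, Gja5 (connexin 40, of atrium and conduction fibres) had 733 counts in Rh2-30 mg/kg and 196 to 281 elsewhere. The desmosomal cadherin Dsg2 was at 92.0 to 110 CPM without Dox and 70.2 to 84.5 CPM with it (9.16% of all genes were lower with no overlap). Of 23 cardiac transcription factors, Hand2 was at 20.6 to 33.8 CPM without Dox and 14.8 to 24.8 CPM with it, and was called lower in Dox against Control, at a log2 fold change of -1.19. Nfatc4, which answers calcium through calcineurin, was at 5.94 to 7.36 CPM without Dox and 8.25 to 9.16 CPM with it.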

How the data were processed

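RNA of 6 libraries was captured with SureSelect XT RNA Direct probes and sequenced, so levels per length also reflect the probes. Per the labels and the methods, the authors trimmed reads, aligned them to mm10 with HISAT2 2.1.0 and estimated abundance with StringTie 2.1.3b on the UCSC annotation. The authors' deposited read count values are whole numbers per gene without normalization. The authors' deposited FPKM values are scaled by transcript length and library size, and served for levels and as an alternative. The authors' deposited TPM values were not used. Strand use in counting is not given in the sources used here, so Kcnq1 and its antisense partner cannot be told apart where they overlap.

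The software was edgeR 4.0.16 and DESeq2 1.42.0 under R 4.3.3, with matplotlib for figures. The 18328 genes averaging 10 counts or more entered TMM scaling, the quasi-likelihood tests and the exact tests, the latter with a common dispersion of 0.0285 estimated over all 6 libraries and the study's cut-offs of 2-fold and p under 0.05. Single fold changes used a prior count of 0.5. Their intervals, at 95%, cover counting error alone or, where the text says so or gives none other for a fold change between 2 libraries, counting error and the dispersion, which is at least 0.67 to either side on the log2 scale. Depth is high enough that counting limits only the lowest genes. The ± values are the standard error of the fit. The p-values rest on the spread between these pooled libraries, not between replicate pools of a condition, which do not exist here. In the exact test that spread includes all treatment differences, as the 6 libraries were taken as 1 group. In the quasi-likelihood fits without a term for the other drug, it includes the differences with that drug.

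The members, gene lists and tests were chosen with earlier results of these data known. Named genes are, within each role, those with the largest difference in any comparison and those passing a test, with the other members by their values, and in each pathway list the 2 genes with the largest mean difference from Control among those averaging 100 counts or more. Some genes that this rule names are not reported here. Comparisons of Rh2 + Dox with the same Rh2 dose and the count ratios within a library were added after values were seen. Gene and promoter positions come from RefSeq on GRCm38.p6. The tests were run on simulated data with known changes. Of 2-fold changes, the quasi-likelihood test recovered 92% for Dox and 73% at each Rh2 dose. The rule for single libraries recovered 47% of them in Dox against Control and called 1.04% of unchanged genes. All these tests recovered 100% of 4-fold changes. The simulated libraries shared the common dispersion and had no second drug, unlike these libraries, so real recovery can differ. Alternatives were DESeq2's size factors and Wald test, no filter on low counts or one of a count above 0 in every library, cardiomyocyte marker scaling, the other drug as a term, other dispersions, FPKM, a prior count of 2, and each library left out.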

Additional observations from a re-analysis of the deposited data

Results flagged for a closer look

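Kcnj3 and Cacna1h were the 2 of the 34 genes that with Dox were at least 1.5-fold higher at 1 Rh2 dose and at least 1.5-fold lower at another. Other genes, such as Scn4b, Cacnb2 and Pln, also turned in sign between doses but were not past that fold both ways. For Kcnj3 the log2 fold change with Dox was 0.90 without Rh2, 0.28 at Rh2-20 mg/kg and -2.04 at Rh2-30 mg/kg. The value of Kcnj3 at 20 mg/kg turned to -0.44 and -0.56 on FPKM plus 1 and plus 0.1, so its direction there depended on the scale. For Cacna1h it was 0.73 without Rh2, 0.24 at Rh2-20 mg/kg and -1.09 at Rh2-30 mg/kg. With 1 library for each condition the difference between doses was not tested. The summed atrium markers in the same libraries were 674, 656 and 3435 CPM without Dox and 1066, 1362 and 727 CPM with it, in order of Rh2 dose. Their part in the result was not tested.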

How the results depend on the processing

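The number of the 34 genes passing an adjusted p-value stayed at 0 in all 3 quasi-likelihood comparisons with DESeq2's size factors, with no filter or a count above 0 in every library, with cardiomyocyte marker scaling, with the other drug as a term, and with each library left out (0 to 0). With DESeq2's Wald test 1 passed for Rh2-30 mg/kg, Itpr2. Over all genes that test passed 425 for Dox against 5, 35 for Rh2-20 mg/kg against 0 and 126 for Rh2-30 mg/kg against 0, and leaving out libraries gave 0 to 14 for Dox and 0 to 2 for Rh2-30 mg/kg. With a biological coefficient of variation of 0.4, calls against Control went from 3 to 1 (Kcnj3) in Rh2-30 mg/kg, from 1 to 0 in Rh2-30 mg/kg + Dox and from 4 to 1 over the 5 libraries, and against Dox from 2 to 0 in Rh2-30 mg/kg + Dox. Without the Rh2-30 mg/kg library, an alternative chosen after seeing the data, 1 gene was called over the remaining 4. Cardiomyocyte marker scaling took the call of Kcne1 in Rh2-30 mg/kg + Dox against Control from 1 to 0, its log2 fold change going from 1.003 to 0.967. It raised calls from 3 to 4 in Rh2-30 mg/kg against Control (Fkbp1b) and in Rh2-30 mg/kg + Dox against Rh2-30 mg/kg (Kcnj5). It shifted all genes alike, taking the median log2 fold change of the 34 genes to 0.22 (all genes 0.46) in the first of these pairs and to -0.10 (all genes -0.50) in the second. Kcnj3 in Rh2-30 mg/kg + Dox against Dox, -0.63 on counts, was 0.040 and 0.051 on FPKM plus 1 and plus 0.1. Of the other alternatives for single fold changes of at least 1.5, 95 stayed within their counting interval and 48 moved without turning. The labels give no replicate numbers to pair by. The main fit for Dox did not match libraries by Rh2 dose. Dox libraries were matched to those without Dox by Rh2 dose in the fit with that dose as a term. There 0 of the 34 genes passed the adjusted threshold and 4 had an unadjusted p-value under 0.05, against 1 without the term. Depth limits Fkbp1b most, with 22 to 75 counts.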

Other observations

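The genes here were chosen from the pathway lists after their values were seen. Casq1, the skeletal muscle calsequestrin, was at 22.1 to 23.95 CPM without Dox and 12.8 to 16.7 CPM with it, a log2 fold change of -0.62 ± 0.12 (SE) with an unadjusted p-value of 0.00114 and an adjusted p-value of 0.216 in edgeR's quasi-likelihood test. Cacna1a, the pore of the P/Q-type calcium channel, was at 87.3 to 98.8 CPM without Dox and 49.5 to 69.1 CPM with it, at -0.57 ± 0.14 with 0.00485 and 0.306. Both were lower in all 3 Dox libraries than in all 3 without (9.16% of all genes were lower in that way). The summed skeletal muscle markers were 518, 489 and 307 CPM without Dox and 329, 298 and 321 CPM with it. The part of those markers in the Casq1 and Cacna1a values was not tested.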
